A study of Mus musculus with 72 samples.

Results

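Met, Ret, Kit, Erbb4, Ntrk2, Ntrk3, Fgfr1 and Igf1r are 8 receptor tyrosine kinases that were measured in single Pet1 neurons of the mouse dorsal raphe (DR), the largest source of serotonin fibres to the forebrain. The members were taken by name from a list that was drawn up with earlier results of these data known. All 8 were found among the 17231 genes of the filtered 10X table and all 8 among the 24256 genes of the table of manually sorted cells. Their levels, and how far they excluded each other, were described over cells, over 14 transcriptome clusters and over 8 sorted groups.

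Receptor tyrosine kinases span the plasma membrane once and carry a kinase on the inner side. Binding of a ligand brings receptor chains together, which phosphorylate each other and recruit adaptors that feed the Ras, phosphatidylinositol kinase and phospholipase pathways. In neurons they serve as receptors for growth and survival factors, shape axons and dendrites and tune synapses, and several of them need a co-receptor to bind their ligand.

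All mice carried Pet1::Flpe, in which an enhancer of Pet1 (Fev) drives the Flpe recombinase, so every cell studied had a Pet1 lineage. The 10X cells came from the full DR in a run on Pet1::Flpe+/- mice homozygous for hM3Dq, of mean age postnatal day 65.5, and in a run on En1::cre+/-, Pet1::Flpe+/-, RC::FrePe+/- mice, of mean age postnatal day 59. Cells were pooled over mice within a run. The manual groups came from mice heterozygous for a Cre driver, Pet1::Flpe and the RC::FrePe reporter, which labels cells by both recombinases, and from a named subdomain of the DR. With Sert::cre there were 10 cells of the dorsolateral DR (dlDR), 9 of the dorsomedial (dmDR), 8 of the ventromedial (vmDR) and 6 of the caudal DR (cDR), at postnatal day 63 or 90. P2ry1::cre gave 10 cells of the cDR at days 62 to 74, Npy2r::cre gave 10 cells of the cDR and 9 of the rostral DR (rDR) at day 77 or 87, and Crh::cre gave 8 cells of the rDR at day 83 or 119. Recombination is permanent, so a label marks any cell with past activity of the driver, and driver, age and part of the DR differed together between several groups and cannot be told apart.

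The 10X table held 2350 cells with a median of 59646 unique molecular identifiers (UMIs) per cell, between 12320 and 134079. Its barcodes fall into 2 unnamed sets of 869 and 1481 cells by their ending, and no barcode was shared between the sets. The manual cells had between 756872 and 7664103 reads on genes. Cells are not replicates and the labels name no animal, so each table gave descriptions with no test, and intervals cover counting error only. Serotonergic genes were present in every cluster, and the summed level of 7 of them ran from 2598 CPM in cluster 13 to 10310 in cluster 3, where CPM are the counts of a gene scaled to the usual fixed total of all counts in the same cells. In what follows a cluster is given by its number and the genes that set that number, none of which is a member, although 7 of the 8 members were among the 2000 variable genes used for clustering.

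The genes lie on 6 chromosomes of the mm10 mouse genome, as annotated in GENCODE. Met spans chr6:17463800-17573980 on the plus strand, Ret chr6:118151745-118197718 on the minus strand, Kit chr5:75574916-75656722 on the plus strand and Erbb4 chr1:68032186-69108059 on the minus strand. Ntrk2 spans chr13:58806569-59133970 (plus), Ntrk3 chr7:78175959-78738012 (minus), Fgfr1 chr8:25513654-25575718 (plus) and Igf1r chr7:67952827-68233668 (plus). Antisense genes overlap Ntrk2, Ntrk3 and Fgfr1, and counts are per gene, so full-length and truncated forms of Ntrk2 and Ntrk3 were summed.

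Promoters are shown for Met, Kit and Erbb4, 3 receptors that were highest in different clusters. Each window of 300 bases runs from 250 before to 50 after the start of a gene and was read from RefSeq on the build GRCm38.p6. Capitals mark CCGGAA or its reverse complement TTCCGG, the core bound by ETS factors, the family to which Pet1 belongs.
Met (chr6:17463707-17464006, plus strand): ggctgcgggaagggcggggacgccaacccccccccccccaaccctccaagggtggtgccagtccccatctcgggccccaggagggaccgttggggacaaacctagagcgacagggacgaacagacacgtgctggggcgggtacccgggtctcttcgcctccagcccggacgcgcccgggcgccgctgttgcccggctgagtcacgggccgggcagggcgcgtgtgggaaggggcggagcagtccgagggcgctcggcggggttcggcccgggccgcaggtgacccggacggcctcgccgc
Kit (chr5:75574737-75575036, plus strand): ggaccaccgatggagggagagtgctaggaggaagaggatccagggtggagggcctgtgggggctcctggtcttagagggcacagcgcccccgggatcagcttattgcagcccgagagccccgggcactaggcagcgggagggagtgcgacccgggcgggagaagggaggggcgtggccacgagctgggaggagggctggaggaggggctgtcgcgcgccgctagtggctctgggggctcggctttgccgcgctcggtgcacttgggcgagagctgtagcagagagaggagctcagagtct
Erbb4 (chr1:69108010-69108309, minus strand): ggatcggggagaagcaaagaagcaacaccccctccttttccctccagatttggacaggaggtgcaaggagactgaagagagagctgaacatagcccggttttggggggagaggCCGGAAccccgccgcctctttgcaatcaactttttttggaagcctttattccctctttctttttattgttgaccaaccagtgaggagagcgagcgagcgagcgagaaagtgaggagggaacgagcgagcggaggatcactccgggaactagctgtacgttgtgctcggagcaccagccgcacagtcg
The motif was found 1 time in the Erbb4 window and 0 times in those of Met and Kit, and 14.9% of all 32851 windows of this length held it. The G and C content was 75.7% for Met, 69.0% for Kit and 55.3% for Erbb4, against a median of 52.7% over all windows. The Met window held 34 CG dinucleotides, that of Kit 20 and that of Erbb4 17, against a median of 7. A match describes the letters only, and the counts of RNA do not measure promoter use. In all, 5 of 8 members were matched in the promoter table, and Ret, Ntrk3 and Fgfr1 were not.

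The receptors were taken as a group with more uneven levels over clusters (Met, Ret, Kit and Erbb4) and a group found in a larger share of cells (Ntrk2, Ntrk3, Fgfr1 and Igf1r). The groups were nearest in Kit, found in 56.2% of cells, and Igf1r, found in 75.4%. Of the 8 members, 3 were at least 4-fold higher in their highest cluster than in all other cells (Met, Ret and Erbb4), and this held for 5.26% of 12901 genes with at least 100 UMIs. The median log2 ratio of the highest cluster to all other cells was 1.04 over the members and 0.54 over all such genes. Because most members helped to build the clusters, these ratios describe the clusters and are no test. With the members and the list genes left out of the clustering, the same number of members, 3, passed 4-fold, and the log2 ratios were 8.56 for Met, 2.77 for Ret, 2.93 for Erbb4 and 1.27 for Kit.

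Met, the receptor of hepatocyte growth factor, was concentrated in cluster 12, the cluster marked by Zeb2, Tacr3, P2ry1, Rxfp1 and S1pr3. Its level there was 147.5 CPM, while the other 13 clusters ranged from 0.12 CPM in cluster 11 to 2.04 in cluster 13. On the log2 scale it was 8.56 above the remaining cells (95% interval 8.15 to 9.00; 5.55 where components 6 and 7 were kept in the clustering), and 93.5% of all Met UMIs lay in this cluster of 109 cells. A Met UMI was found in 106 cells of cluster 12, with a median of 6 UMIs and a highest of 16. Outside it, 33 of 2241 cells had one (1.47%, exact Clopper-Pearson interval 1.02 to 2.06), of which 29 had a single UMI and 4 had at least 3 UMIs, the highest holding 8. With each cell thinned to 20000 UMIs the share in cluster 12 was 88.7%, although this cluster had a lower depth than most, with a median of 45568 UMIs.

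Ret, the signalling receptor of the glial cell line-derived neurotrophic factor family, had a graded pattern with 2 high clusters. It reached 172.4 CPM in cluster 6 (Pou3f2, Bcl11a, Gad1) and 114.9 in cluster 5 (Pdyn, Col25a1), followed by 55.3 in cluster 9, 38.6 in cluster 11 and 35.1 in cluster 13. Clusters 2, 7 and 14 lay between 16.8 and 21.4 CPM, and clusters 1, 3, 4, 8, 10 and 12 lay between 1.10 and 6.35. Cluster 6 exceeded the remaining cells by 2.77 on the log2 scale (2.68 to 2.85). Ret was found in 42.0% of all cells (28.5% after thinning) but in only 5.00% of cluster 1. No cell type that should lack these receptors was in the table, so such lowest clusters stand in for the background.

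Kit, the receptor of stem cell factor, was high in clusters 3 and 10, where Ret was low. With Ret it shared cluster 5 as a high cluster and cluster 11 as a middle one. It was at 93.8 CPM in cluster 5 and 93.0 in cluster 3 (Hcrtr1, Phlda1), whose log2 ratio of 0.01 had an interval of -0.10 to 0.12. Cluster 10 followed with 61.9 CPM, cluster 4 with 43.8 and cluster 11 with 38.7, and the lowest were cluster 7 with 2.76 and cluster 14 with 1.12. Kit was the uneven receptor found in the most cells, 56.2% of all and 38.9% after thinning, against 4.00% in cluster 14. Its ratio of the highest cluster to all other cells was 1.27 on the log2 scale (1.17 to 1.37), and 0.49 when clusters were made at a resolution of 0.7.

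Erbb4, the neuregulin receptor, was highest where Kit was low. It was at 132.6 CPM in cluster 13 (Nfib, Nppc, Bmp3) and 111.8 in cluster 14 (Gpr101, Ecel1, Cxcl14), followed by 78.5 in cluster 6 and 44.8 in cluster 9. In the other 10 clusters it lay between 0.55 CPM (cluster 8) and 21.5 (cluster 7). Cluster 13 exceeded the remaining cells by 2.91 on the log2 scale (2.77 to 3.04). Erbb4 was found in 37.3% of cells (24.8% after thinning) and in 3.49% of cluster 8, although clusters 13 and 14, where it was highest, had the lowest median depths of 28628 and 34715 UMIs.

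**Figure D1:**
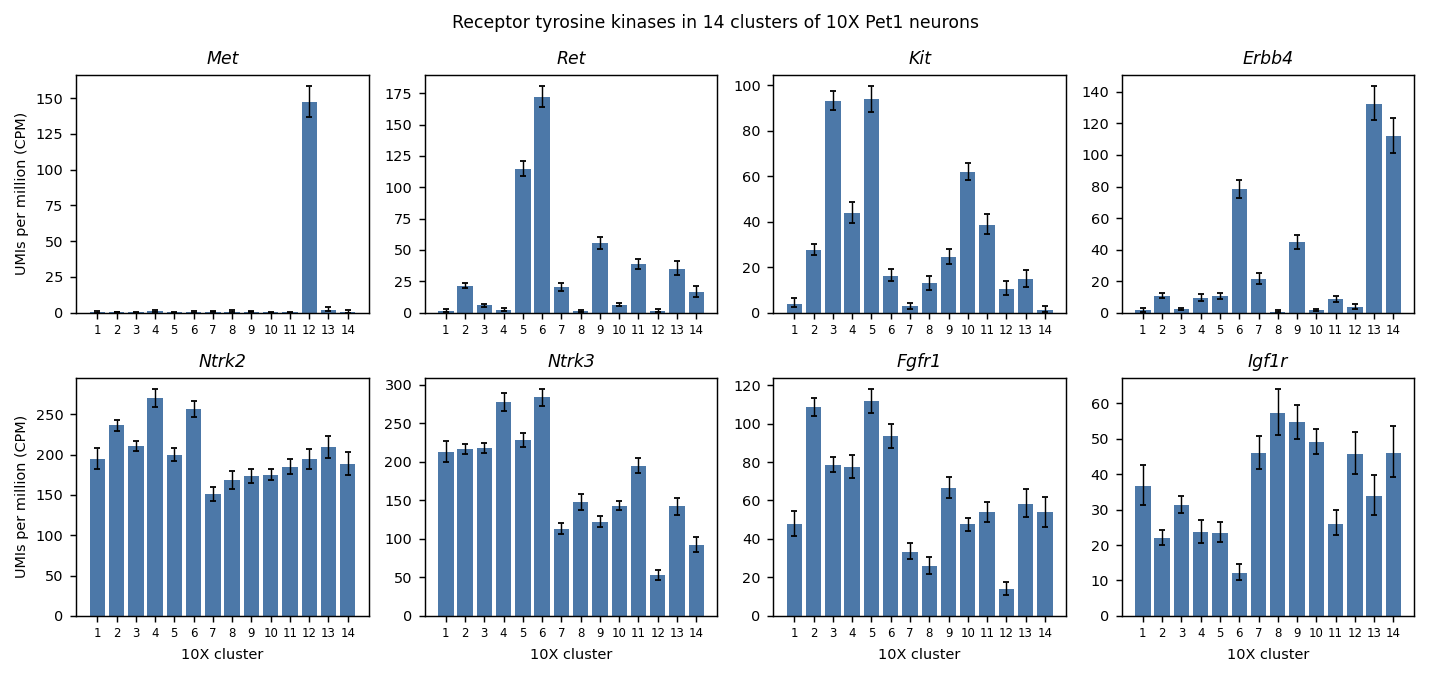
Level of each receptor (CPM of UMIs, linear axes that differ between panels) in the 14 clusters of 10X cells, numbered on the horizontal axis. Bars are summed UMIs over summed totals and error bars are exact 95% Poisson intervals. Met stands alone in cluster 12 at 147.5 CPM, Ret, Kit and Erbb4 peak in different clusters, and Ntrk2 stays between 151.0 and 270.2 CPM.

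The neurotrophin receptors were found in nearly every cell. Ntrk2, which encodes TrkB, the receptor of Bdnf, was found in 99.7% of cells and varied least, from 151.0 CPM in cluster 7 to 270.2 in cluster 4, a 1.79-fold range. Ntrk3, which encodes TrkC, the receptor of the product of Ntf3, was found in 98.3% of cells and ran from 52.7 CPM in cluster 12 to 283.8 in cluster 6, a 5.38-fold range. A UMI in at least 90% of cells was seen for Ntrk2, Ntrk3 and Fgfr1, 3 of the 8 members, and for 20.0% of all genes in the table.

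Fgfr1, a receptor of fibroblast growth factors, was found in 90.7% of cells, 70.0% after thinning. Its levels ran from 14.1 CPM in cluster 12 and 25.7 in cluster 8 to 108.6 in cluster 2 and 111.6 in cluster 5, a 7.92-fold range. Igf1r, the receptor of insulin-like growth factor, was found in 75.4% of cells and in 45.3% after thinning. It was lowest in cluster 6 with 12.2 CPM and highest in cluster 8 with 57.3, a 4.71-fold range in which the clusters low in the neurotrophin receptors tended to be high. When clusters were ordered by level, 13 neighbouring pairs could be compared for each receptor. Their intervals overlapped in 12 pairs for Met and Igf1r, 11 for Ntrk2, 9 for Fgfr1, 8 for Kit, Erbb4 and Ntrk3 and 7 for Ret.

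Over the 14 clusters the Pearson correlation of log2 levels was 0.79 for Ntrk3 and Fgfr1 and 0.71 for Ret and Erbb4, while it was -0.80 for Ntrk2 and Igf1r. Over the means of the 8 sorted groups it was 0.87 for Ntrk3 and Fgfr1 and 0.74 for Ret and Erbb4. For Ntrk2 and Igf1r it was 0.55, so that this last relation had the other sign. These correlations are descriptions over few points, and clusters share libraries while sorted groups differ in depth per cell.

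Mutual exclusion was measured as the number of cells holding both receptors over the number that their shares would give if they were independent. Of 28 pairs, 2 were at or under 0.5 of the expected number, Met with Ret and Met with Erbb4. Among all pairs of genes with an expected number of at least 10 cells, 0.0861% were so low, or 0.163% of the pairs whose shares allow a ratio of 0.5. Among the members 9 of the 28 pairs had shares that allow it, since a gene found in nearly every cell cannot exclude another.

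Met and Ret were found together in 22 cells where 58.3 were expected (ratio 0.38), and Met and Erbb4 in 24 where 51.9 were expected (0.46). Met and Kit met in 44 cells against 78.1 (0.56) and Met and Fgfr1 in 78 against 126 (0.62). Kit and Erbb4 were found together in 358 cells against 492.6 expected (0.73). Ret and Erbb4 went the other way, with 522 cells against 368.0 (1.42), and Ret and Kit were close to independence with 570 against 553.8 (1.03). The 7 pairs with Ntrk2 all had ratios of 1.00 when rounded.

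Detection at 1 UMI counts cells with many UMIs and cells with a single one alike. At a minimum of 3 UMIs, 6 of the 28 pairs were at or under 0.5, against 0.148% of all pairs of genes, or 6 of the 17 whose shares allow it against 0.222%: Met with Ret (0.05), with Kit (0.06), with Fgfr1 (0.12), with Erbb4 (0.18) and with Ntrk3 (0.47), and Kit with Erbb4 (0.26). At this minimum Met and Ret shared 1 cell where 21.2 were expected, and Kit and Erbb4 shared 38 where 144.4 were expected. Ret and Erbb4 shared 210 against 94.9 (2.21). The ratios of Met with Ret, Kit, Erbb4 and Fgfr1 and of Kit with Erbb4 were thus lower at 3 UMIs than at 1.

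**Figure D2:**
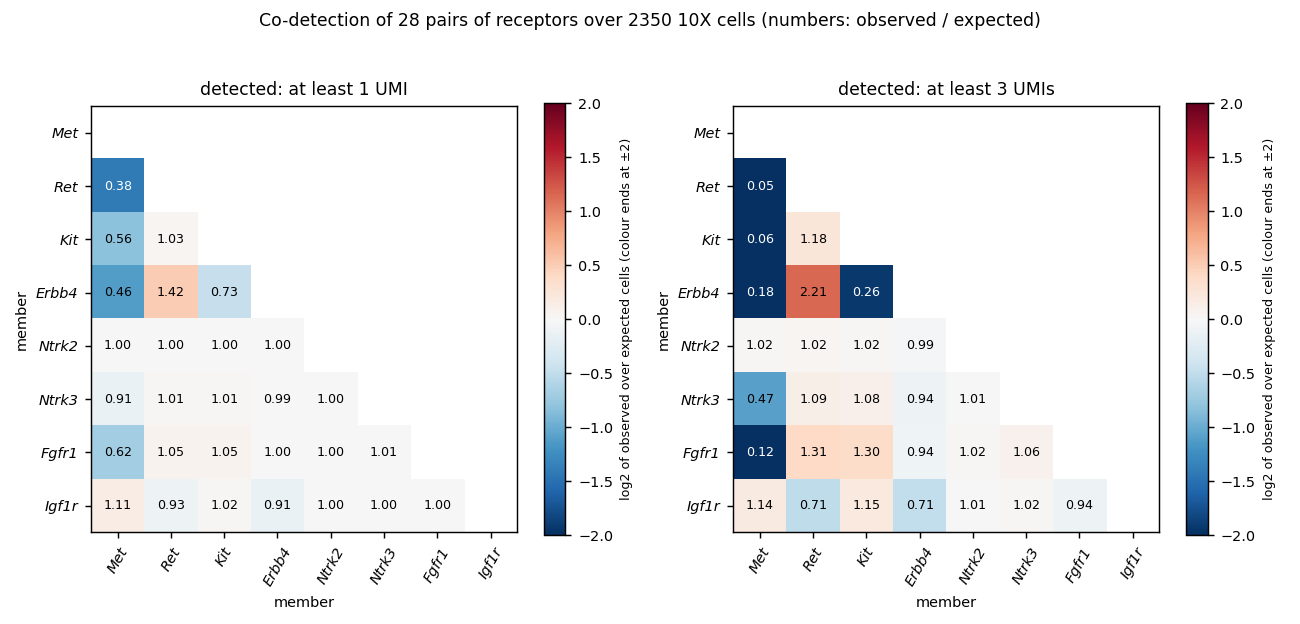
Observed over expected number of 10X cells with both receptors for the 28 pairs, with detection at 1 UMI (left) and at 3 UMIs (right). Colour gives the log2 of the ratio, blue below and red above expectation, and the printed number is the ratio, for example 0.38 and 0.05 for Met with Ret and 1.42 and 2.21 for Ret with Erbb4.

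The pairs were then compared within clusters. When the expected number was summed over clusters, so that only cells of the same cluster were compared, the ratios of the 28 pairs lay between 0.91 and 1.11 at 1 UMI and 0 pairs were at or under 0.5. At 3 UMIs within clusters, an alternative chosen after the data had been seen, the ratios lay between 0.50 and 1.88 and again 0 pairs reached 0.5 or less. In cluster 12, 106 of 109 cells held Met, which left its pairs little room to fall below expectation there, and 7 of the 8 members were among the variable genes from which the clusters were made. Of the 22 cells with Met and Ret, 8 were in cluster 12 and 14 outside it, while for Met and Kit the numbers were 30 and 14.

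Over the 4 uneven receptors, nearly every cell held 3 or fewer. At 1 UMI, 13.3% of cells had none of Met, Ret, Kit and Erbb4, 42.9% had 1, 33.0% had 2, 10.8% had 3 and 1 cell had all 4. Kit alone was the commonest state (595 cells), followed by Ret with Kit (328), none (312), Ret with Erbb4 (277), Ret with Kit and Erbb4 (236) and Erbb4 alone (223). At 3 UMIs the commonest states were none (935 cells), Kit alone (583), Ret with Kit (193, of which 124 in cluster 5), Erbb4 alone (192) and Ret with Erbb4 (183, of which 102 in cluster 6). Met alone made up 88 cells, 85 of them in cluster 12, and only 5 cells held Met with another of the 4 receptors.

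The clusters differed in how many of the 4 receptors a cell had. In cluster 1 (Npas1, Gabrq) 84.0% of cells had none, and in cluster 8 (Rorb, Wnt4) 51.2% had none. In cluster 5, by contrast, 97.8% had at least 2 and in cluster 6 95.8%. Clusters 13 and 14, the shallowest, were without any in 2.08% and 2.00% of cells at 1 UMI and in 29.2% and 33.0% at 3 UMIs, where clusters 5 and 6 were at 1.68% and 8.93%. The part of depth in these shares was not tested. Over all 8 members, a cell held a median of 5 and 1 cell held all of them.

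**Figure D3:**
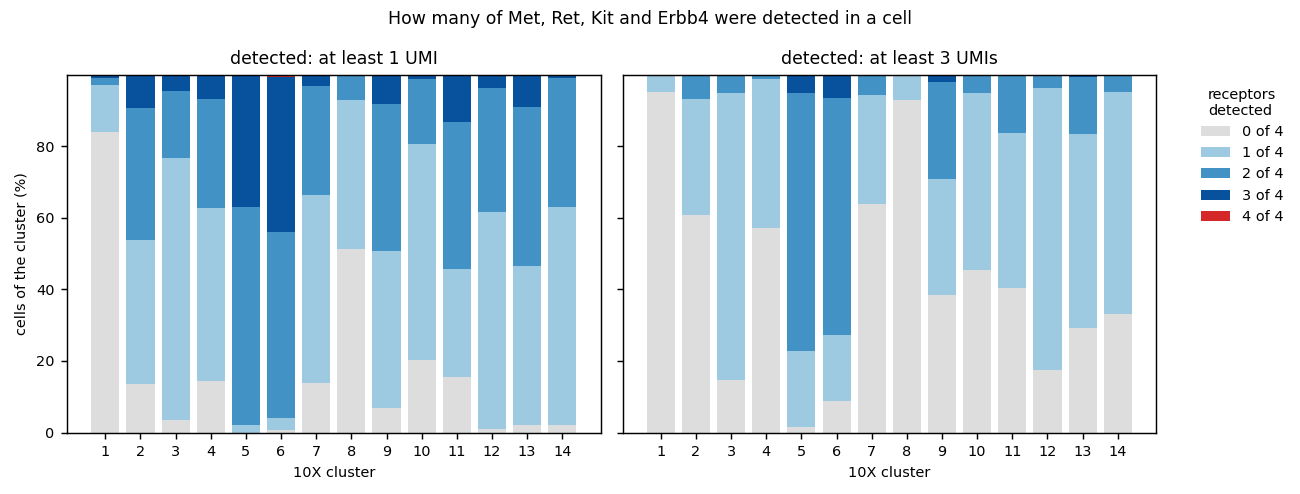
Share of cells (%) in each 10X cluster that held 0, 1, 2, 3 or 4 of Met, Ret, Kit and Erbb4, with detection at 1 UMI (left) and at 3 UMIs (right). Cluster 1 is mostly without any of them (84.0% at 1 UMI), and clusters 5 and 6 mostly hold 2 or more (97.8% and 95.8%).

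Cluster 12 was compared with all other cells for every member, a comparison chosen after the Met level had been seen. Beside the high Met, 4 of the 8 members were at least 4-fold lower there, and this held for 5.32% of 12901 genes. Ret was at 1.61 CPM against 37.1 (log2 ratio -4.52), Erbb4 at 3.62 against 22.1 (-2.61), Fgfr1 at 14.1 against 73.5 (-2.38) and Kit at 10.5 against 44.7 (-2.09). Ret was lower still in clusters 1 and 8, Kit in clusters 1, 7 and 14, and Erbb4 in clusters 1, 3, 8 and 10. Fgfr1 and Ntrk3, by contrast, were lower in cluster 12 than in any other cluster. Ntrk3 was at 52.7 against 194.5 (-1.88), whereas Ntrk2 (-0.09) and Igf1r (0.45) were near the level of other cells. The median log2 ratio was -1.99 over the members and 0.03 over all genes. Gfra1, the co-receptor through which Ret binds Gdnf, was at 5.43 CPM in cluster 12 and between 107.6 and 371.9 in every other cluster.

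Some genes named as markers of other cell types were also higher in cluster 12. The astrocyte list summed to 405 CPM there, of which S100b made up 401, against at most 25.7 CPM of S100b in any other cluster. The defining astrocyte genes Gfap, Gja1, Aldh1l1 and Slc1a3 were each at or below 1.61 CPM in cluster 12. The endothelial and mural list was at 25 CPM in cluster 12, of which Vtn gave 9.06 and Rgs5 9.66, against 18 in cluster 6. The part of these genes in the Met pattern was not tested.

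Cluster 9 (Maf, Nos1, Crh) was looked at because Kit and Erbb4 were both present there, a choice made after the values had been seen. At 3 UMIs, 2 of its 148 cells held both, where 12.2 were expected (0.16), while 32 held Kit only, 51 Erbb4 only and 63 neither. Ret and Erbb4 were found together in 38 cells against 17.5 expected (2.17). Ret reached 3 UMIs in 36 of the 51 cells with Erbb4 only and in 5 of the 32 with Kit only. Both kinds of cell had a like depth, with median totals of 62259 and 62876 UMIs. With 1 UMI, Kit and Erbb4 shared 17 cells of cluster 9 against 37.0 expected (0.46). With the expected number summed over barcode sets the ratio at 3 UMIs was again 0.16. Over all clusters, 198 of the combinations of a member pair and a cluster had an expected number of at least 5 cells at 3 UMIs, 17 of them pairs among Ret, Kit and Erbb4. Of the 198, 2 were at or under 0.5, where 0.126% of all gene pairs within clusters were, and of the 72 whose shares allow such a ratio the same 2 were, against 0.271% of all gene pairs. They were this one and Kit with Erbb4 in cluster 2 (Crym, Trh), with 1 cell where 5.04 were expected. In cluster 2 the barcode sets differed in both genes, Erbb4 being at 4.67 CPM in the smaller set and 21.4 in the larger and Kit at 32.9 and 18.6. Summed over sets 3.83 cells were expected there, and at 1 UMI the genes shared 59 cells of cluster 2 against 67.6 expected (0.87).

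Receptors were then set beside their ligands and co-receptors. Of 986 cells with Ret, 978 (99.2%) also held Gfra1, but Gfra1 was found in 95.2% of all cells. Over clusters the correlation of the levels of Ret and Gfra1 was 0.62, and cluster 12 was low in both. Gfra2, a co-receptor for neurturin, was in 76 of the Ret cells against 57.5 expected over all cells and 73.0 when cells of the same cluster were compared. The Ret ligands Gdnf and Nrtn were found in 19 and 34 cells in all. They were in 4 and 12 Ret cells, against 7.97 and 14.3 expected over all cells.

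**Figure D4:**
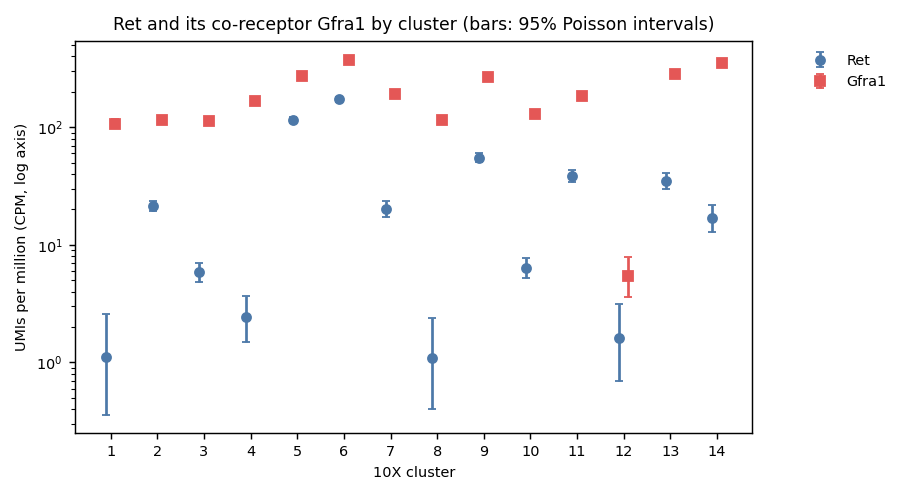
Levels of Ret (circles) and its co-receptor Gfra1 (squares) in CPM of UMIs on a log axis over the 14 10X clusters, with exact 95% Poisson intervals. Ret varies widely while Gfra1 is at 107.6 CPM or more in 13 clusters, and cluster 12 is low in both, at 1.61 CPM for Ret and 5.43 for Gfra1.

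Ligands of the other receptors were read in a few cells or in many. Hgf, the Met ligand, was found in 13 cells, 8 of which held Met, where 0.77 were expected over all cells and 8.85 when cells of the same cluster were compared. The ligand genes Nrg1, Nrg2 and Nrg3 of Erbb4 were common, with 627, 443 and 600 cells of both and ratios of 0.95, 1.01 and 1.07 (0.91, 1.15 and 1.23 after thinning). The correlation of their levels with that of Erbb4 over the 14 clusters was -0.37 for Nrg1, 0.60 for Nrg2 and 0.86 for Nrg3. Bdnf was found with Ntrk2 in 717 cells (ratio 1.00). Kitl was found in 11 cells, 8 of them with Kit against 6.18 expected. Fgf1 and Fgfr1 met in 1195 cells (0.98), with a correlation of -0.67 over clusters.

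The sorted cells gave full-length reads from chosen parts of the DR. With a pseudocount of 1 CPM added to medians, only 1 of the 8 members, Met, had a group at least 4-fold above every other group (3.42% of 13172 genes did). Its log2 ratio was 6.46. Ret was just under 4-fold by this measure, with a log2 ratio of 1.98, and just over it without the pseudocount. With the most frequent age of each group alone (the younger where ages tied), Ret passed as well (2.25, against 5.28 for Met). In the P2ry1::cre cDR group Met had a lowest value of 0 CPM, a median of 86.8 and a highest of 160.7, with reads in 9 of 10 cells. Outside this group Met was read in 1 cell of the vmDR at 1.07 CPM and 1 cell of the Npy2r::cre rDR at 3.45, and in no cell of the other 5 groups. Neither of these cells had a read of Zeb2 or Tacr3. The Npy2r::cre rDR cell held 17.6 CPM of P2ry1 and the vmDR cell held none. The P2ry1::cre cell without Met reads held 81.0 CPM of Zeb2 and 8.42 of P2ry1, and it had 57.2 CPM of Ntrk3.

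Ret was highest in the Npy2r::cre rDR group, with a lowest value of 0, a median of 83.0 and a highest of 242.2 CPM, and reads in 8 of 9 cells. Its 3 cells of day 77 had a median of 18.4 CPM (2 with reads) and its 6 cells of day 87 one of 153.0 (6 with reads), and age and animal cannot be told apart. Cells 4 to 7, all of day 87, had between 756872 and 1489171 reads on genes, and the other cells of this group 5215246 or more. Ret was between 83.0 and 163.8 CPM in cells 4 to 7 and at 31.6 and 242.2 in the other cells of day 87. The part of depth was not tested. The dmDR (median 20.3, 6 of 9 cells) and the Npy2r::cre cDR (median 19.6, 6 of 10) followed. The vmDR had a median of 5.68 CPM, and the medians of the dlDR, Crh::cre rDR, Sert::cre cDR and P2ry1::cre cDR groups were 0. The ranges of single cells overlapped between all of these groups, since every group had cells at 0. In the P2ry1::cre group a single cell held Ret, at 0.19 CPM.

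Kit was highest in the Crh::cre rDR group (0 to 173.9 CPM, median 117.6, reads in 7 of 8 cells). In the dmDR all 9 cells held it, with a lowest value of 2.61, a median of 73.6 and a highest of 153.5 CPM. The Npy2r::cre rDR group had a median of 54.2 CPM and the dlDR one of 17.9. In the caudal groups Kit was read in 1 of 6 Sert::cre cells, 2 of 10 Npy2r::cre cells and 5 of 10 P2ry1::cre cells, with medians of 0, 0 and 0.08 CPM. The vmDR, which is not caudal, also had a median of 0, with Kit in 3 of 8 cells and a highest value of 97.7 CPM.

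Erbb4 was read in both Npy2r::cre groups, with a median of 24.0 CPM in the rDR (5 of 9 cells) and 18.5 in the cDR (6 of 10 cells). The cells of day 87 carried both medians: in the rDR, 1 of 3 cells of day 77 held Erbb4 (median 0) and 4 of 6 of day 87 (41.8 CPM), and in the cDR the numbers were 1 of 4 (median 0) and 5 of 6 (35.0 CPM). In the Npy2r::cre rDR the cells with the fewest reads on genes were all of day 87. The dlDR had Erbb4 in 3 of 10 cells with a highest value of 122.5 CPM, and the Crh::cre rDR in 3 of 8. None of the 6 Sert::cre cDR cells and none of the 10 P2ry1::cre cells held it.

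The broad receptors were broad in the sorted cells as well. Ntrk2 had reads in 70 of 70 cells, with group medians between 85.2 and 122.9 CPM. Ntrk3 was read in 67 cells, with a median of 12.5 CPM in the P2ry1::cre group (7 of 10 cells) and between 75.0 and 181.7 in the others. Its medians differed with age, being lower at day 90 than at day 63 in the dlDR (114.7 against 227.2 CPM), the dmDR (110.8 against 267.3) and the vmDR (149.7 against 223.3). They were also lower in the older cells of the Crh::cre rDR (124.5 against 208.6) and the Npy2r::cre cDR (75.0 against 87.1), and higher in those of the Npy2r::cre rDR (196.0 against 74.0). The older cells of the Npy2r::cre rDR likewise had higher medians of Ntrk2 (131.5 against 53.8 CPM) and Fgfr1 (83.0 against 29.9), and age and animal cannot be told apart. The cells with the fewest reads in the Npy2r::cre rDR and the Crh::cre rDR were all among the older ones. The part of depth was not tested. Fgfr1 was read in 3 of the 10 P2ry1::cre cells, with a median of 0, while the other medians lay between 18.8 and 86.0 CPM. Igf1r was read in 64 cells with medians between 6.94 and 26.5 CPM. The P2ry1::cre group, which had most of the Met reads, was therefore the lowest of the 8 groups for Ntrk3 and Fgfr1, as cluster 12 was among the 10X clusters. In these cells S100b had a median of 434 CPM, and Gfap, Gja1, Aldh1l1 and Aqp4 were at 0 in all 10. Slc1a3 was read in 2 of the 10, at up to 53.6 CPM.

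Levels between genes were compared per kilobase of exon, in the full-length libraries alone. The length was the union of all annotated exons of a gene and not that of a transcript, 30.2 kb for Ntrk3, 19.3 for Ntrk2 and 9.88 for Fgfr1. The median over the 70 cells was 5.76 CPM per kilobase for Ntrk2, 4.74 for Fgfr1, 4.11 for Ntrk3, 0.792 for Igf1r and 0.413 for Kit, and 0 for Met, Ret and Erbb4. Before scaling it was 124.1 CPM for Ntrk3, 111.2 for Ntrk2 and 46.8 for Fgfr1, so the order of these genes depends on the length used. The UMIs of the 10X cells come from transcript ends and were not scaled by length.

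Pairs in the 70 sorted cells rested on small numbers. Met and Ret were read together in 3 cells where 5.03 were expected, Met and Erbb4 in 1 against 3.30, and Met and Kit in 7 against 6.44. Ret and Erbb4 were read together in 15 against 9.60, and Kit and Erbb4 in 11 against 12.3. With at least 10 reads of each, Met and Ret shared 1 cell against 4.00, Met and Kit 3 against 5.00 and Ret and Erbb4 12 against 7.20. The cell with both Met and Ret at that minimum, from the Npy2r::cre rDR group, held 18 reads of Met, 133 of Ret, 46 of Kit and 125 of Erbb4. Ret with Erbb4 was above expectation and Met with Ret below it, as in the 10X cells. Met with Kit was below expectation in the 10X cells, and in the sorted cells it was above it with at least 1 read and below it with at least 10.

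**Figure D5:**
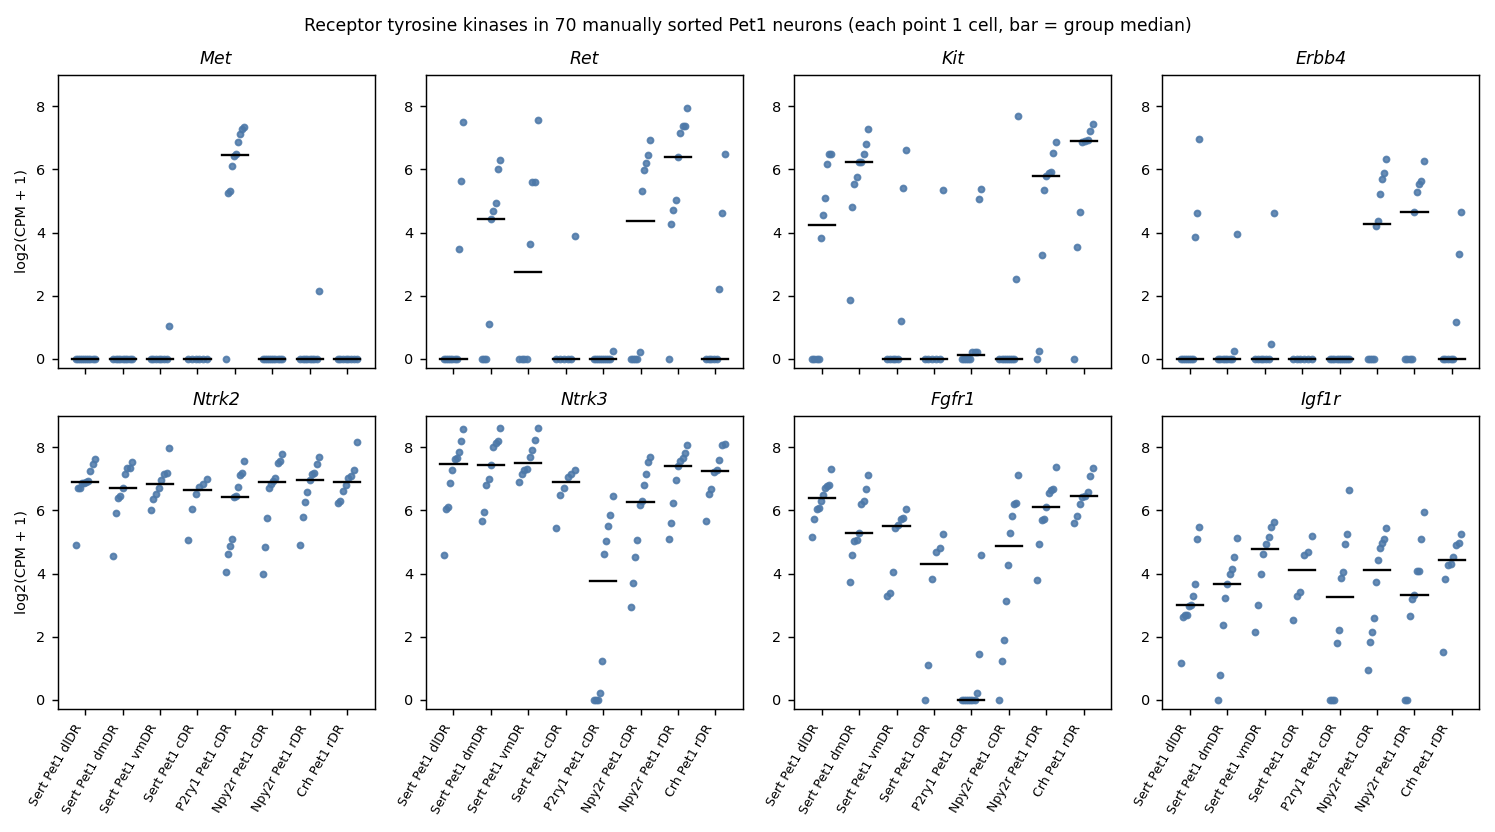
Level of each receptor in CPM of reads in the 70 manually sorted cells, by sorted group. Each point is a cell and each line is the median of the group. Met is read in 9 of 10 P2ry1::cre cDR cells, where Fgfr1 is read in 3, and Ntrk2 is read in all 70 cells.

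The genes with the pattern most like each member were chosen by their correlation over the 14 clusters, among 7737 genes with at least 20 CPM in a cluster. Zeb2, a transcription factor, was the gene most like Met (0.97 over clusters and 1.00 over the 8 sorted groups), followed by Herc3 (0.96 and 0.87) and Arl14ep (0.95 and -0.26). For Ret these were Exoc4 (0.91 and 0.73), Abca2 (0.90 and 0.08) and Polr2m (0.89 and 0.37). For Kit they were Stard10 (0.87 and 0.26), Rassf5 (0.85 and 0.63) and Iscu (0.84 and 0.31). For Erbb4 they were Map2 (0.92 and 0.46), Sema3d (0.90 and 0.68) and Sema6b (0.90 and -0.02). Met was low outside cluster 12 and the P2ry1::cre group, so its correlations rest largely on that cluster and that group. Zeb2 is also among the genes that set the number of cluster 12. Zeb2 and Herc3 had high values over the sorted groups too, while several of the others had a value near 0 there.

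Among the broad receptors, Ntrk2 was most like Osbpl9 (0.95 over clusters and 0.02 over groups), Hace1 (0.91 and 0.78) and D3Ertd254e (0.89 and 0.89). Ntrk3 was most like Syt13 (0.94 and 0.92), Pip4k2a (0.94 and 0.82) and Hmgb3 (0.92 and 0.90). Fgfr1 was most like Rtcb (0.96 and -0.57), Ajap1 (0.95 and 0.94) and Ptprm (0.94 and 0.93), and Igf1r most like Nefl (0.86 and 0.53), Cnn3 (0.85 and 0.19) and M6pr (0.83 and -0.17). The 3 genes most like Ntrk3 were at 0.82 or more in the sorted groups as well, and those most like Igf1r were at or below 0.53.

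Other genes of the pathway were read from fixed lists. Of 49 other receptor tyrosine kinases, 43 were in the 10X table, 24 had at least 100 UMIs, and 7 of these were at least 4-fold higher in their highest cluster than in all other cells, against 5.26% of all genes. The ephrin receptors Epha3 (22.3 CPM) and Epha6 (33.0) were highest in cluster 12, Epha4 (21.3) and Ephb1 (42.9) in cluster 13, and Epha8 (4.26) in cluster 6. Egfr (7.47 CPM) was highest in cluster 4 and Ror2 (8.44), a Wnt receptor, in cluster 11. Only Epha5 and Aatk reached 50 CPM over all cells, at 109.5 and 74.5.

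Ligands were the next list. Of 25 ligand genes, 17 were in the table, 12 had at least 100 UMIs and 3 of these were at least 4-fold higher in a cluster, Bdnf in cluster 14 (78.2 CPM), Fgf18 in cluster 6 (31.2) and Fgf10 in cluster 13 (12.7). None reached 50 CPM over all cells. Of 12 co-receptors, 11 were in the table and 9 had at least 100 UMIs. Gfra2 (18.4 CPM) and Sorcs2 (13.4), both highest in cluster 13, passed 4-fold. The co-receptors Ncam1 (598 CPM), Gfra1 (177.6) and Gfra4 (69.6) were above 50 CPM over all cells.

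Adaptors and feedback genes were the last list. All 33 were in the table and 32 had at least 100 UMIs, of which 1 passed 4-fold (5.26% of all genes tested did), Lrig1, a feedback inhibitor that was highest in cluster 13. The adaptor genes Grb2 (213 CPM), Irs4 (151), Sos1 (83.7) and Frs3 (64.8), the phosphatase gene Ptpn11 (113.5), the kinase subunit gene Pik3ca (82.4) and the ubiquitin ligase gene Cbl (57.5) were above 50 CPM over all cells. The median log2 ratio of the highest cluster to all other cells was 1.47 for the other receptors, 1.41 for the ligands, 1.14 for the co-receptors and 0.55 for the adaptors, against 0.54 over all genes tested. In the sorted cells a pseudocount of 1 CPM was again added to medians. A group median at least 4-fold above every other group was held by 3.42% of all genes. This was so for 2 of 27 other receptors tested, 2 of 14 ligands, 0 of 11 co-receptors and 0 of 32 adaptors and feedback genes. They were Epha3 (P2ry1::cre, median 8.8 CPM), Epha8 (Sert::cre cDR, 3.7), Bdnf (dmDR, 17.7) and Fgf18 (Npy2r::cre rDR, 26.4).

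The 2 barcode sets were compared for the members, since they may stand for the runs on the 2 genotypes. Pooled over clusters, none of the 8 members differed by 1.5-fold or more between the sets, and 6.53% of 12901 genes did. Within clusters, a view added after the values had been seen, 7 of 80 combinations of a member and a cluster with at least 100 UMIs differed by that much, against 6.85% over all genes. These were Ret in clusters 9 and 10, Kit in clusters 2 and 6, Erbb4 in clusters 2 and 5 and Fgfr1 in cluster 8. Ret in cluster 9 was at 29.4 CPM in the smaller set and 66.7 in the larger, and Fgfr1 in cluster 8 at 13.3 and 33.6. The log2 ratio of the larger set to the smaller ran from -0.46 for Met to 0.27 for Erbb4. In both sets 2 of the 28 pairs were at or under 0.5 of the expected number.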

How the data were processed

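The members and lists were chosen with earlier results of these data known. The authors mapped 10X reads (3′ chemistry) to mm10 with Cell Ranger 3.0.2, removed genes seen in few cells and cells of low quality or without Fev, and deposited UMI counts without normalization. For the manual cells the authors mapped SMART-Seq reads to mm10 with STAR 2.5.4 and deposited read counts per gene. Use of strand in that counting was not given in the sources used here. Columns of the manual table were matched to samples by title, and 8 columns named Crf were taken as the samples titled Crh, by subdomain and number (Crf and Crh are names of 1 gene).

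Clusters were made with Seurat 5.3.0 (R 4.3.3) from 2000 variable genes and components 1 to 50 without 6 and 7, with 20 neighbours and a resolution of 0.9, and numbered by fixed markers. UMIs were summed over the cells of a cluster and divided by their total (CPM), with 95% Poisson intervals. Shares of cells carry Clopper-Pearson intervals. Thinning to 20000 UMIs left out 53 cells. Scrublet in scanpy 1.11.5 called 14 doublets, which were kept. No test between groups was possible without named animals, so counts past 4-fold were read against all genes. The members are always named, with the 3 most similar genes of each and the list genes that reached 50 CPM or 4-fold or are a ligand or co-receptor of a member. Ratios and pair counts were tested on simulated data. Python 3.11.15, numpy 2.4.6, scipy 1.17.1, pandas 2.3.3 and matplotlib 3.10.9 were used. Settings tried were thinning, detection at 3 UMIs, expected numbers within clusters, single barcode sets, doublets left out, other resolutions and components, clustering without members and list genes, no filter on low genes, a pseudocount of 5 and single ages.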

Additional observations from a re-analysis of the deposited data

Results flagged for a closer look

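Within each sorted group of 6 to 10 cells, the highest and the lowest cell for each receptor were checked for a gap to the nearest other cell that was large against the whole range, by Dixon's criterion. Of 57 receptor and group combinations with any reads, 14 had such a cell. The criterion flags about 1 in 20 groups by chance only for normally spread replicates, which single cells with many values of 0 are not, and a lone cell with reads in a group otherwise at 0 is always flagged, as 5 of the 14 were. Those 5 were Met at 1.07 CPM in the vmDR and at 3.45 in the Npy2r::cre rDR, Ret at 13.7 in the Sert::cre cDR and at 0.19 in the P2ry1::cre cDR, and Kit at 39.4 in the Sert::cre cDR. Cells far above the rest were Kit at 203 CPM in the Npy2r::cre cDR (next 4.76), Erbb4 at 14.5 in the dmDR (next 0.19) and at 23.4 in the vmDR (next 0.38), and Fgfr1 at 22.8 in the P2ry1::cre cDR (next 1.74). Cells far below the rest were Met at 0 CPM in the P2ry1::cre cDR (next 37.4), Ret at 0 in the Npy2r::cre rDR (next 18.4), Kit at 2.61 in the dmDR (next 26.9), Ntrk2 at 29.0 in the dlDR (next 102.5) and Igf1r at 1.88 in the Crh::cre rDR (next 13.2).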

How the results depend on the processing

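The number of member pairs at or under 0.5 of the expected co-detection was 2, and moved to 6 with detection at 3 UMIs, to 4 after thinning and to 0 with expected numbers summed within clusters. It was also 0 with 3 UMIs within clusters, an alternative chosen after seeing the data, as was the sum over barcode sets for Kit with Erbb4 in clusters 2 (0.20 to 0.26) and 9 (0.16 in both). It stayed at 2 without doublets and in each barcode set. The number of members at least 4-fold higher in a cluster stayed at 3 under all 9 alternatives tried, and the log2 ratio of Met lay between 5.55 (components 6 and 7 kept) and 9.38 (the smaller barcode set alone). The log2 ratio of Kit was lowest, 0.49, at a resolution of 0.7, where most cells of clusters 5 and 6 lay in the same cluster of 351 cells. With components 6 and 7 kept, 67 of the 109 cells of cluster 12 lay in the cluster that held most of them. In the sorted cells, 2 members in place of 1 passed 4-fold when only the most frequent age of each group was kept, Met with a log2 ratio of 5.28 and Ret with 2.25. Results for single receptors or pairs counted as moved if the highest group, the side of 4-fold or a count (by over 1.5-fold) changed. In the sorted cells 4 moved with the most frequent age, 4 with at least 10 reads, 2 with means over cells and 1 with size factors. The ratio of Met with Ret, 0.38, turned to 1.88 with 3 UMIs within clusters, where it rests on 1 shared cell. The cause was not tested. No paired analysis was possible because each sorted sample is 1 cell, replicate numbers only name cells, and no test between groups was run. For the same reason no replicate was left out in turn. Clusters differed in depth, and its part in low shares of cells with a UMI was not tested. Shares in groups of 6 to 10 cells are coarse: 0 of 6 cells allows a share of up to 45.9% by the exact interval.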
